A study of Mus musculus with 16 samples.

Results

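The mitochondrially encoded mRNA rows of tibial cortical bone are described here: 8 of the 47517 rows counted, chosen by name as mt-Nd1, mt-Nd2, mt-Nd3, mt-Nd4, mt-Nd5, mt-Nd6, mt-Co1 and mt-Cytb. The other 29 rows with a mitochondrial name (tRNA, rRNA and the remaining mRNA rows) were used as a comparison. RNA was sequenced from both tibiae of 8 male mice aged 16 weeks, 4 labelled NT3-Cre+ (NT3 below) and 4 labelled Ctrl, in a study of bone in which NF-kB inducing kinase is switched on in osteolineage cells. The 4 groups of 4 libraries were NT3 loaded, NT3 non-loaded, Ctrl loaded and Ctrl non-loaded tibiae. The right tibia was compressed along its axis on 9 days, 1200 cycles a day at 4 Hz with a rest insertion of 0.1 s. The peak force was 10.0 N in NT3 mice and 8.7 N in Ctrl mice, to reach -2000 microstrain in both. The left tibia of the same mouse was the non-loaded partner. All mice were anaesthetized for loading and given buprenorphine, and the bones were stripped of muscle and flushed of marrow 4 h after the last bout. What NT3 stands for as an allele, which promoter drove Cre and what the Ctrl mice carried is not given in the sources used here, so these limit NT3 as a model.

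The mitochondrial genome encodes a small part of the machinery of oxidative phosphorylation, and nuclear genes encode the rest. Both of its strands are transcribed into long RNAs that are cut, largely at the tRNAs, into mRNAs, tRNAs and rRNAs. In mammals mt-Nd6 is the only mRNA encoded on its strand, whose remaining RNA is mostly non-coding and short-lived, while mt-Co1 mRNA is usually among the abundant mitochondrial transcripts.

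The 6 mt-Nd rows belong to subunits of complex I, which passes electrons from NADH to ubiquinone and pumps protons. The mt-Cytb row belongs to cytochrome b of complex III, which passes electrons from ubiquinol to cytochrome c. The mt-Co1 row belongs to the catalytic subunit of complex IV, cytochrome c oxidase. On GRCm38, in the GENCODE annotation, mt-Nd1 lies at M:2751-3707, mt-Nd2 at M:3914-4951, mt-Co1 at M:5328-6872, mt-Nd3 at M:9459-9806, mt-Nd4 at M:10167-11544, mt-Nd5 at M:11742-13565 and mt-Cytb at M:14145-15288, all on the plus strand. The mt-Nd6 gene lies at M:13552-14070 on the minus strand. Each of the 8 genes is a single exon.

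The mt-Nd5 and mt-Nd6 genes meet end to end, and their ends overlap by 14 bases. These are the only annotated bases at which 1 member runs opposite another, and no member lay opposite as much as 20 bases of another gene's exons. The last 60 bases of each gene on GRCm38 are shown because they are where the strands of the highest 2 rows touch; capitals mark the 14 shared bases, read from opposite strands.
mt-Nd5, M:13506-13565, plus strand: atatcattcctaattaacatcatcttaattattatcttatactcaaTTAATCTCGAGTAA
mt-Nd6, M:13552-13611, minus strand: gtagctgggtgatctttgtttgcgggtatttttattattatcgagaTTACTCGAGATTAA
The strands also differ in base composition: the mt-Nd6 gene is 28.1% G and 5.97% C as read on its own strand, against 7.996% to 16.1% G and 22.1% to 27.7% C in the other 7 genes.

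Libraries held 758394 to 1064391 counted fragments, of which rows of ribosomal RNA took 8.27% to 19.0%. All 37 mitochondrial rows together took 0.613% to 0.989%. Many abundant rows lay opposite the exons of another gene: this held for 1076 of 1224 annotated rows with a mean of 100 fragments or more (87.9%) and for 15.2% of the remaining rows. The Ccdc107 row, which lies opposite exons of Rmrp, held 55508 to 114105 fragments per library, or 6.53% to 11.6% of those counted. Rows of some usually abundant nuclear transcripts were low, with 11 to 33 fragments for Actb, 23 to 51 for Gapdh and 3 to 24 for Eef1a1. The Col1a1 row held 34 to 430 fragments, Col1a2 20 to 208 and Sparc 8 to 108. Rows of bone cell markers were present by name. The 10 osteoblast rows summed to 282 to 1075 TMM-scaled counts per 1e+06 fragments (CPM). The 8 osteocyte rows summed to 143 to 348 CPM, but the osteocalcin row Bglap held 0 to 4 fragments. By name, 13 skeletal muscle rows also summed to 300 to 717, 7 B lymphoid rows to 200 to 363 and 8 erythroid rows to 87.5 to 172 CPM. Osteoclast, granulocyte, adipocyte and endothelial rows by name each summed to 139 CPM or less. Read by the gene opposite, sums were larger. The 3 rows opposite osteoblast markers summed to 709 to 5597 CPM and the 2 opposite granulocyte markers to 2172 to 8289 CPM. The 2 opposite erythroid markers, 1 of them at 0 fragments, summed to 1057 to 3301 CPM. The 4 opposite B lymphoid markers summed to 160 to 691 CPM. No row lay opposite osteocyte, osteoclast, adipocyte or endothelial markers. The library protocol in the labels describes no step that marks the strand, and the strand setting of the counting was not given in the sources used here. The labels therefore do not tell whether a row counts fragments of its named gene or of the strand opposite it. Which strand was counted was not tested beyond the levels described here.

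The mt-Nd6 row had the highest level per length of the 8 rows in 16 of 16 libraries, and the mt-Nd5 row came next in each. The level of mt-Nd6 was 2829 ± 763 CPM per kb (mean ± SD, n = 16) and ran from 1726 to 4184. The level of mt-Nd5 was 843 ± 171 CPM per kb and ran from 620 to 1151. The highest mt-Nd5 library therefore lay below the lowest mt-Nd6 library.

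Below these, the mt-Cytb row stood at 482 ± 68.4 CPM per kb and the mt-Nd1 row at 373 ± 66.3 CPM per kb. The mt-Co1 row stood at 290 ± 55.2 CPM per kb, the mt-Nd4 row at 241 ± 45.2, the mt-Nd2 row at 169 ± 34.6 and the mt-Nd3 row at 123 ± 28.96 CPM per kb. Each row exceeded the next in 13 to 16 of the 16 libraries. The exceptions were mt-Co1 against mt-Nd4, which was reversed in 3 libraries, and mt-Nd1 against mt-Co1 and mt-Nd2 against mt-Nd3, reversed in 1 library each. From mt-Cytb down to mt-Nd3, the ranges of neighbouring rows overlapped.

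Per annotated length, the row of the lone mRNA on its strand was thus the highest of the 8. The row of the complex IV catalytic subunit, usually an abundant mRNA, was the fifth. This length includes stretches that also occur in nuclear transcripts, 39.8% of the windows of mt-Co1, 61.5% of mt-Nd4 and 97.8% of mt-Nd3, as described below. The places of these rows therefore depend on how such stretches are counted. Among all 6069 rows averaging at least 10 fragments, mt-Nd6 ranked 30 per length, mt-Nd5 ranked 77 and mt-Co1 ranked 246. Without length scaling the mt-Nd6 row held 859 to 2052 fragments, the mt-Nd5 row 1072 to 2060 and the mt-Co1 row 229 to 526.

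**Figure D1:**
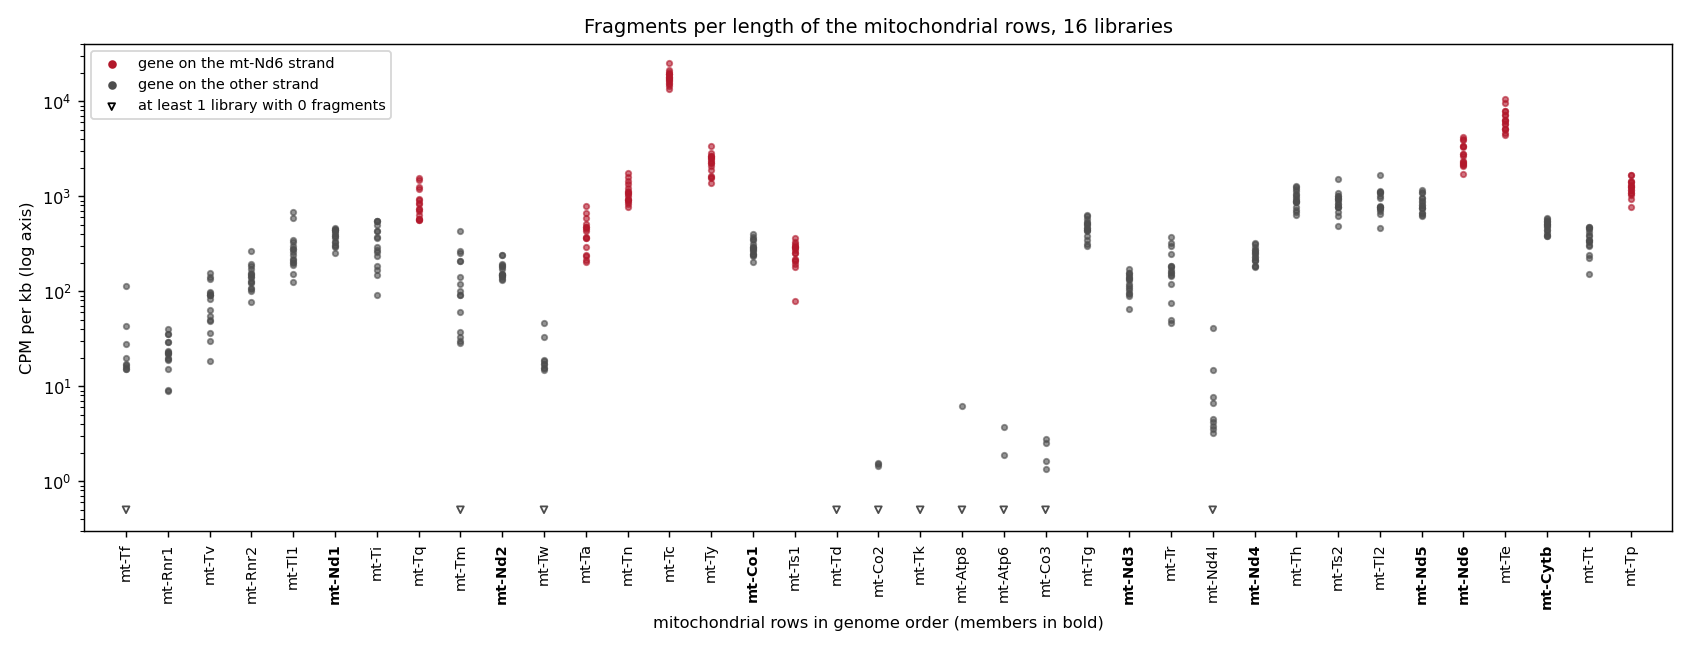
Level per length (CPM per kb, log axis) of the 37 mitochondrial rows in genome order, 1 point per library, red for genes on the mt-Nd6 strand and grey for genes on the other strand. Open triangles mark rows with 0 fragments in at least 1 library; the mt-Tc, mt-Te and mt-Nd6 rows, all red, stand highest.

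The tRNA rows gave a comparison within the same genome that did not involve the members. The 8 tRNA rows on the mt-Nd6 strand had a median of 1203 ± 218 CPM per kb over the 16 libraries (range 878 to 1635), and the 14 tRNA rows on the other strand had a median of 205 ± 67.3 CPM per kb (range 108 to 337). The ranges of these medians did not overlap, but the levels of single rows did. On the mt-Nd6 strand, mt-Tq averaged 877, mt-Ta 415 and mt-Ts1 253 CPM per kb. On the other strand, mt-Th averaged 944, mt-Tl2 902 and mt-Ts2 883 CPM per kb. The mt-Tc row (tRNA for cysteine) was the highest with 650 to 1463 fragments, and the mt-Te row (tRNA for glutamate), next to mt-Nd6 on its strand, held 275 to 744. The mt-Td and mt-Tk rows on the other strand held 0 fragments in each library. Both are shorter than 75 bases, so they were left out of the search for nuclear copies described below. A tRNA is shorter than or close to the 75-base read, so a fragment counted there can run into the sequence beside it. In all, the 9 rows on the mt-Nd6 strand cover 1068 bases and held 46.9% of the mitochondrial fragments; the 28 rows on the other strand cover 14373 bases and held 53.1%.

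The ratio of mt-Nd6 to the median of the other 7 rows, per kb, was 11.9 ± 2.09 in NT3 loaded, 11.3 ± 3.03 in NT3 non-loaded, 7.76 ± 2.25 in Ctrl loaded and 8.98 ± 4.28 in Ctrl non-loaded tibiae (mean ± SD, n = 4 each). Single libraries ran from 4.86 to 14.7, so the ratio was well above 1 in each. NT3 and Ctrl ranges overlapped in both limbs. With loading, the ratio was higher in the loaded limb of 2 of 4 NT3 mice and 1 of 4 Ctrl mice. The mt-Nd6 row made up 21.7% to 36.0% of the fragments of the 8 rows. In loaded tibiae this part was 29.5% to 35.2% in NT3 and 23.5% to 27.2% in Ctrl, and the ranges did not overlap. Without length scaling the ratio to the median was 3.88 to 5.63 in NT3 loaded and 2.65 to 3.58 in Ctrl loaded tibiae. These ranges did not overlap either. Both measures overlapped between genotypes in non-loaded tibiae. They were compared after the values had been seen, so no test is given.

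Set against its neighbour mt-Nd5, mt-Nd6 was 3.49 to 3.87 times as high per kb in NT3 loaded tibiae and 2.48 to 2.88 times in Ctrl loaded tibiae. These ranges did not overlap, and this ratio was singled out after the values had been seen, so no test is given. In non-loaded tibiae the same ratio was 3.29 to 4.38 in NT3 and 2.62 to 4.10 in Ctrl, and the ranges overlapped. The rows themselves showed no such separation in loaded tibiae. There mt-Nd6 was 1124, 2088, 1737 and 1748 CPM in NT3 and 1165, 1389, 1178 and 1440 CPM in Ctrl, the lowest NT3 library lying below each Ctrl library.

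**Figure D2:**
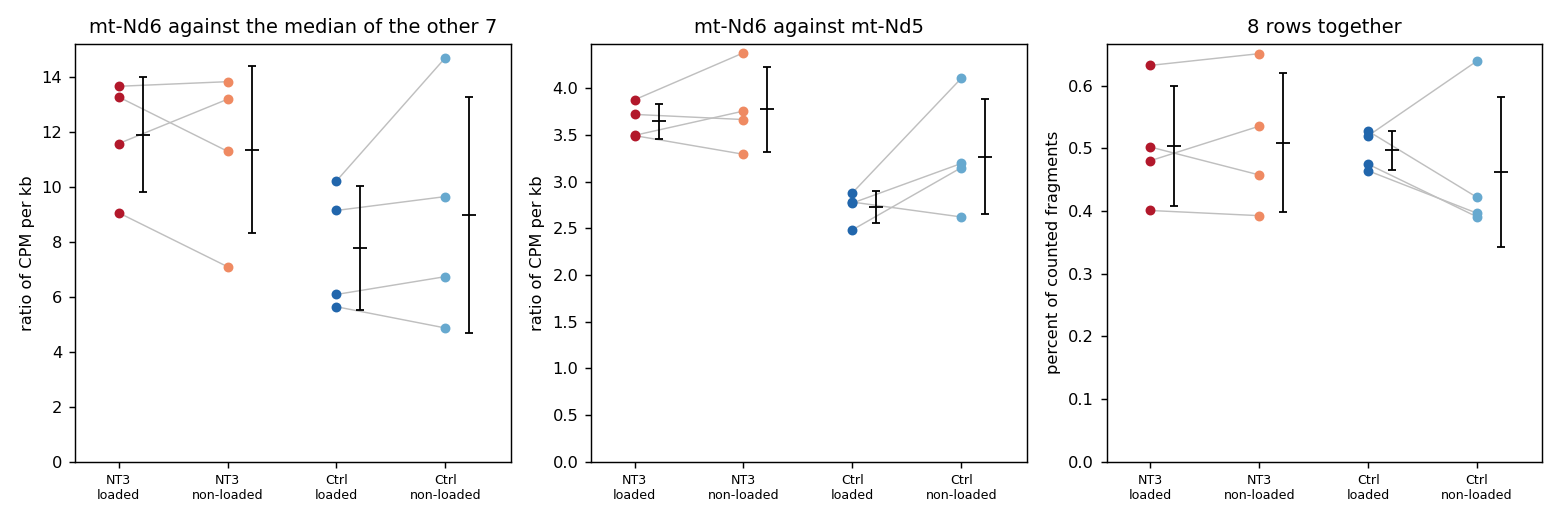
Ratio of mt-Nd6 to the median of the other 7 rows and to mt-Nd5 (CPM per kb), and the percent of counted fragments in the 8 rows, by group; points are libraries, grey lines join the limbs of a mouse, bars are mean and SD of 4 libraries. In loaded tibiae the mt-Nd6 to mt-Nd5 ratio is 3.49 to 3.87 in NT3 and 2.48 to 2.88 in Ctrl, while the other panels overlap.

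Part of the mitochondrial genome is also present in nuclear DNA, and a read that matches both places may be lost or assigned elsewhere. How reads with several matches were handled was not given in the sources used here. Exact copies of the 75-base windows of each row were counted in annotated nuclear transcripts. None of the windows of mt-Nd1, mt-Nd6 and mt-Cytb had a copy, 1.66% of those of mt-Nd5 had 1, and 5.71% of those of mt-Nd2. The shares were 39.8% for mt-Co1, 61.5% for mt-Nd4 and 97.8% for mt-Nd3.

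The 4 mitochondrial mRNA rows with 98.7% to 99.9% of windows copied, mt-Nd4l, mt-Atp6, mt-Co2 and mt-Co3, held 0 to 9 fragments per library. The mt-Nd3 row, nearly as fully copied, held 20 to 54. The mt-Atp8 row, with no window copied in an annotated nuclear transcript, held 0 to 1. Copies in nuclear DNA outside annotated transcripts were not searched. Rows of the nuclear copies were low: the copy of mt-Nd3, Gm28438 on chromosome 1, held 0 to 7 fragments, and the other 11 held 0 to 4. The part of copied windows in the levels of mt-Co1, mt-Nd4 and mt-Nd3 was not tested. When only windows without a copy counted as length and mt-Nd3 was left out, the ratio of mt-Nd6 to the median of the others was 8.14 in NT3 loaded, 7.67 in NT3 non-loaded, 5.16 in Ctrl loaded and 5.79 in Ctrl non-loaded tibiae. In loaded tibiae this ratio ran from 6.12 to 9.96 in NT3 and from 4.02 to 6.18 in Ctrl, so the ranges overlapped.

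**Figure D3:**
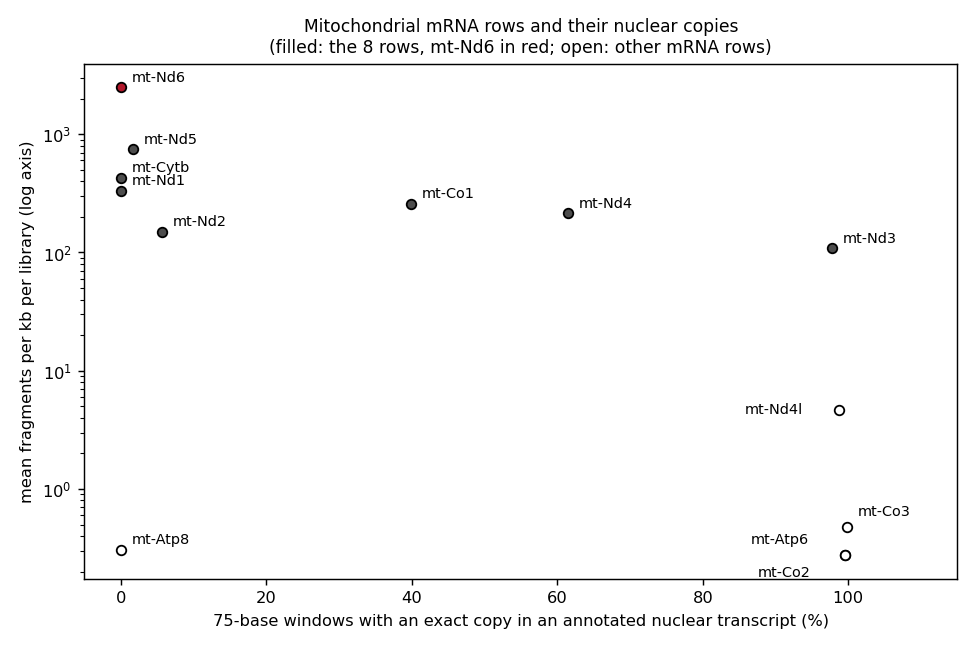
Mean fragments per kb per library (log axis) of the 13 mitochondrial mRNA rows against the percent of their 75-base windows with an exact copy in an annotated nuclear transcript. Filled points are the 8 rows, mt-Nd6 in red; the 4 open points near 100% held 0 to 9 fragments per library.

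The 8 rows together took a similar share of the fragments in the 4 groups: 0.504 ± 0.0960% in NT3 loaded, 0.509 ± 0.111% in NT3 non-loaded, 0.496 ± 0.0318% in Ctrl loaded and 0.462 ± 0.119% in Ctrl non-loaded tibiae (mean ± SD, n = 4). The largest gap between group means was smaller than the SD of 3 of the groups. That SD is taken between mice and does not measure the change within a mouse. By mouse 1 to 4, the Ctrl share was 0.474%, 0.527%, 0.464% and 0.520% in loaded and 0.390%, 0.422%, 0.396% and 0.639% in non-loaded limbs. In NT3 mice it was 0.401%, 0.632%, 0.502% and 0.480% in loaded and 0.392%, 0.651%, 0.457% and 0.535% in non-loaded limbs. These changes were not tested. In bulk bone, fewer cells of a type and less RNA per cell cannot be told apart. Ctrl non-loaded replicate 4 stood apart at 0.639%, against 0.390% to 0.422% in the other 3 libraries of its group. It also had a high level of the Rabep2 row, which lies opposite Atp2a1, the calcium pump gene of fast muscle fibres, at 3604 CPM against 587.2 to 1297 CPM. Across the other groups the 2 measures did not keep 1 order. The share was 0.632% in the loaded and 0.651% in the non-loaded limb of NT3 mouse 2, with Rabep2 at 1221 and 1553 CPM. It was 0.535% in NT3 non-loaded replicate 4 and 0.527% in Ctrl loaded replicate 2, with Rabep2 at 4163 and 3849 CPM. The part of muscle-linked RNA in the share was not tested. The 6 rows opposite skeletal muscle genes summed to 805 to 3418 CPM in NT3 loaded, 1955 to 10154 in NT3 non-loaded, 935 to 9979 in Ctrl loaded and 1375 to 8304 CPM in Ctrl non-loaded tibiae.

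Each comparison was fitted over all rows with edgeR, and a row was called at a Benjamini-Hochberg adjusted p under 0.05. All 8 rows passed the filter on low counts in each comparison. None was called in any of the 5, so no difference between NT3 and Ctrl, and none between loaded and non-loaded limbs, passed the test for a member.

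In non-loaded tibiae, NT3 against Ctrl, 0 of 8 rows were called, where 0.579% of all rows were. At an unadjusted p under 0.05 the count was 0 with edgeR and 0 with DESeq2, and 7.8% of all rows reached that level with edgeR, so a count of 0 among 8 rows lies near the background. The median log2 fold change of the 8 rows was 0.06, against -0.01 over all rows tested. The largest was that of mt-Nd3, with 45.2, 58.9, 41.1 and 30.9 CPM in NT3 and 22.7, 36.1, 32.3 and 33.4 CPM in Ctrl. The groups overlapped, and the log2 fold change was 0.49 (SE 0.27, adjusted p = 0.716). The mt-Nd6 row was 1072, 2172, 1441 and 1689 CPM in NT3 and 1107, 1231, 896 and 2017 CPM in Ctrl. Its log2 fold change was 0.27 (SE 0.25), with a 95% interval of -0.27 to 0.81. The other 6 rows lay between -0.23 (mt-Cytb) and 0.26 (mt-Nd2).

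In loaded tibiae, NT3 against Ctrl, 0 of 8 rows were called, where 2.63% of all rows were. At an unadjusted p under 0.05 the count was 4 with edgeR, for mt-Nd1, mt-Nd6, mt-Co1 and mt-Cytb, and 2 with DESeq2, and 13.2% of all rows reached that level. DESeq2 called 0. The median of the 8 rows was -0.19, against -0.00116 over all rows.

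The mt-Nd1 row had the smallest p of the 8 in loaded tibiae, with 290, 417, 242 and 285 CPM in NT3 and 417, 369, 444 and 403 CPM in Ctrl. Of the NT3 libraries, 3 lay below the Ctrl range and replicate 2 lay within it. The log2 fold change was -0.41 (SE 0.14, adjusted p = 0.141). Without NT3 replicate 2 it was -0.58 with an adjusted p of 0.0184, while over all the alternatives the adjusted p ran from 0.0184 to 0.467.

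The mt-Nd6 row differed in the other direction in loaded tibiae, with a log2 fold change of 0.37 (SE 0.16, adjusted p = 0.256). Its value was 0.53 without NT3 replicate 1 (adjusted p = 0.0328) and 0.25 without NT3 replicate 2 (adjusted p = 0.602), and the adjusted p ran from 0.0328 to 0.602 over the alternatives. The complex IV row mt-Co1 was 370, 537, 430 and 310 CPM in NT3 and 570, 450, 622 and 420 CPM in Ctrl, with overlapping groups. Its log2 fold change was -0.32 (SE 0.15, adjusted p = 0.352). The complex III row mt-Cytb was 437, 633, 446 and 469 CPM in NT3 and 560, 577, 658 and 612 CPM in Ctrl. NT3 replicate 2 was within the Ctrl range and the other 3 NT3 libraries were below it, with a log2 fold change of -0.28 (SE 0.14, adjusted p = 0.375). The remaining complex I rows, mt-Nd2, mt-Nd3, mt-Nd4 and mt-Nd5, lay between -0.22 and 0.18.

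**Figure D4:**
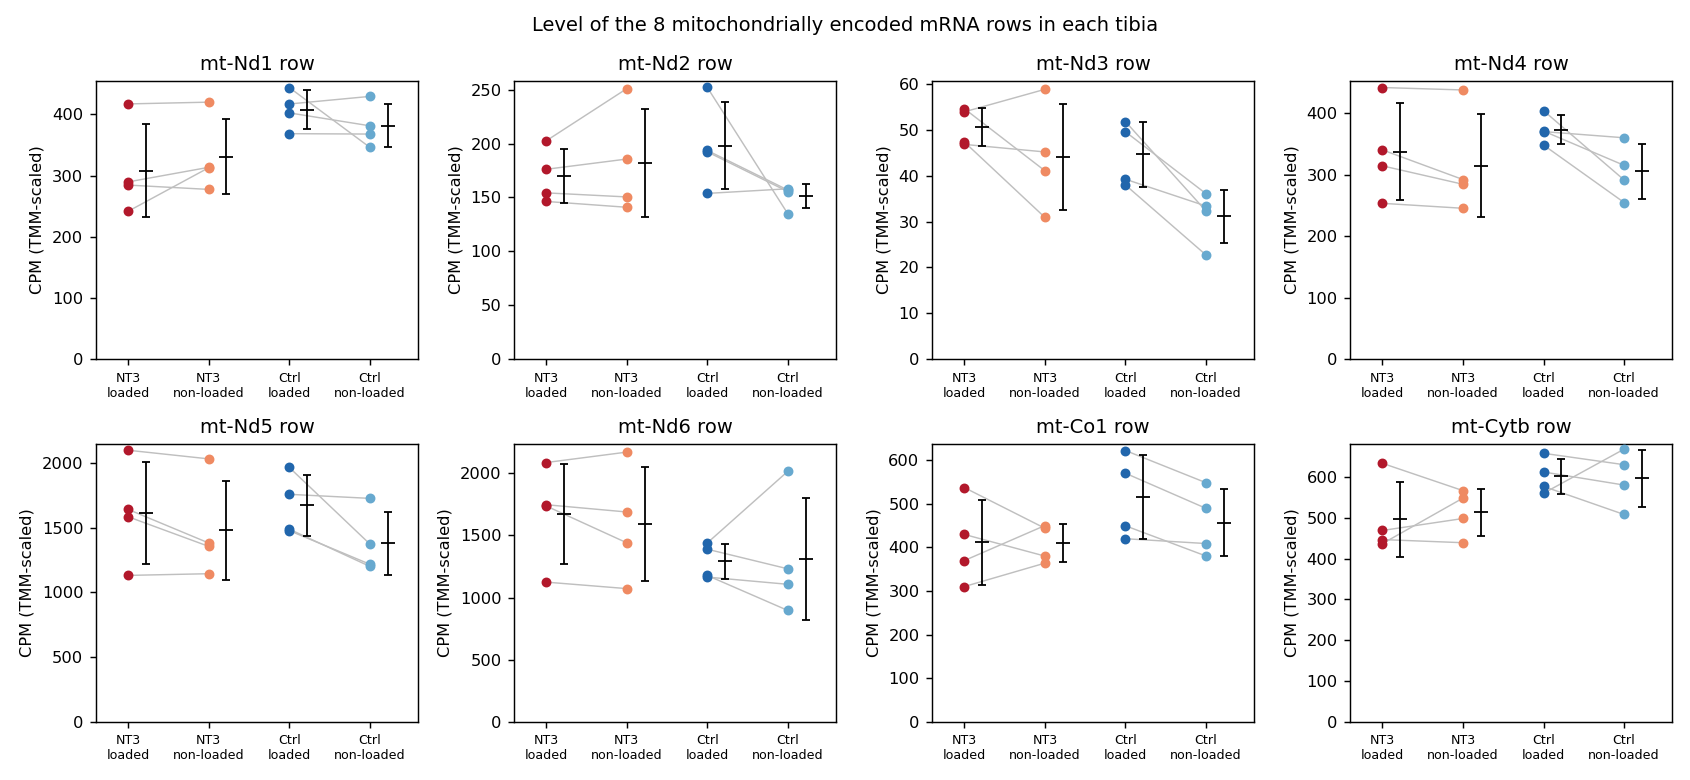
Level (TMM-scaled CPM) of each of the 8 rows by group; points are libraries, grey lines join the limbs of a mouse, bars are mean and SD of 4 libraries. The NT3 and Ctrl ranges overlap in both limbs for each row.

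With loading in Ctrl mice, 0 of 8 rows were called, where 4.06% of all rows were, and DESeq2 called 0. At an unadjusted p under 0.05 the count was 4 with edgeR, for mt-Nd2, mt-Nd3, mt-Nd4 and mt-Nd5, and 3 with DESeq2, and 14.8% of all rows reached that level. All 8 estimates were above 0, where 46.9% of those of all rows tested were. The median of the 8 was 0.23, against -0.03 over all rows tested. For 2 of the 8, mt-Nd6 and mt-Cytb, the sign turned under some of the alternatives.

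The complex I row mt-Nd4 was 348, 404, 371 and 370 CPM in the loaded and 255, 291, 315 and 360 CPM in the non-loaded limbs of Ctrl mice 1 to 4, higher in the loaded limb of 4 of 4 mice. Its log2 fold change was 0.30 (SE 0.12, adjusted p = 0.200). The mt-Nd5 row was 1478, 1967, 1489 and 1759 CPM in loaded and 1218, 1375, 1202 and 1727 CPM in non-loaded limbs, again higher in 4 of 4 mice, by 0.03 to 0.52 on the log2 scale. Its log2 fold change was 0.28 (SE 0.11, adjusted p = 0.177). Ctrl mouse 4 had the smallest change of both rows, and without it the mt-Nd5 value was 0.39 with an adjusted p of 0.0478, against a range of 0.0478 to 0.686 over the alternatives.

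The mt-Nd3 row was 38.0, 49.7, 51.9 and 39.3 CPM in loaded and 22.7, 36.1, 32.3 and 33.4 CPM in non-loaded limbs of Ctrl mice. It was higher in the loaded limb of 4 of 4 mice, with the widest error of the 8 (log2 fold change 0.52, SE 0.24, adjusted p = 0.296). The mt-Nd2 row was higher in 3 of 4 mice, at 194, 154, 192 and 252 CPM in loaded and 157, 158, 155 and 135 CPM in non-loaded limbs. Its log2 fold change was 0.37 (SE 0.15, adjusted p = 0.175), and the change in mouse 4 was 0.90. The mt-Co1 row was higher in 4 of 4 mice by 0.04 to 0.24. The log2 fold changes of mt-Nd1, mt-Nd6 and mt-Cytb were 0.10, 0.04 and 0.02.

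With loading in NT3 mice, 0 of 8 rows were called, where 0.417% of all rows were, and DESeq2 called 0. At an unadjusted p under 0.05 the count was 0 with both tools, and 7.59% of all rows reached that level with edgeR. Estimates lay between -0.11 (mt-Nd1) and 0.22 (mt-Nd3), with a median of 0.03. The mt-Nd4 row was 253, 442, 314 and 340 CPM in loaded and 245, 438, 284 and 292 CPM in non-loaded limbs, higher in 4 of 4 mice by 0.01 to 0.22. Its log2 fold change was 0.11 (SE 0.12) with a 95% interval of -0.14 to 0.35. A change of the size estimated in Ctrl mice therefore lay within the interval. The mt-Nd6 interval was -0.16 to 0.32.

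The loading response of NT3 minus that of Ctrl was called for 0 of 8 rows, where 0.139% of all rows were called. It reached an unadjusted p under 0.05 for 1 row, mt-Nd2, with edgeR and for 0 with DESeq2, and 6.56% of all rows reached that level with edgeR. The mt-Nd2 difference was -0.45 (SE 0.21, adjusted p = 0.715), with loaded limbs at 154, 203, 146 and 176 CPM and non-loaded limbs at 150, 251, 141 and 186 CPM in NT3. By mouse, the loaded limb differed most from its partner in Ctrl mouse 4, by 0.90, and in NT3 mouse 2, by -0.31. The other rows lay between -0.30 (mt-Nd3) and 0.04 (mt-Nd6), and each of their 95% intervals included 0.

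**Figure D5:**
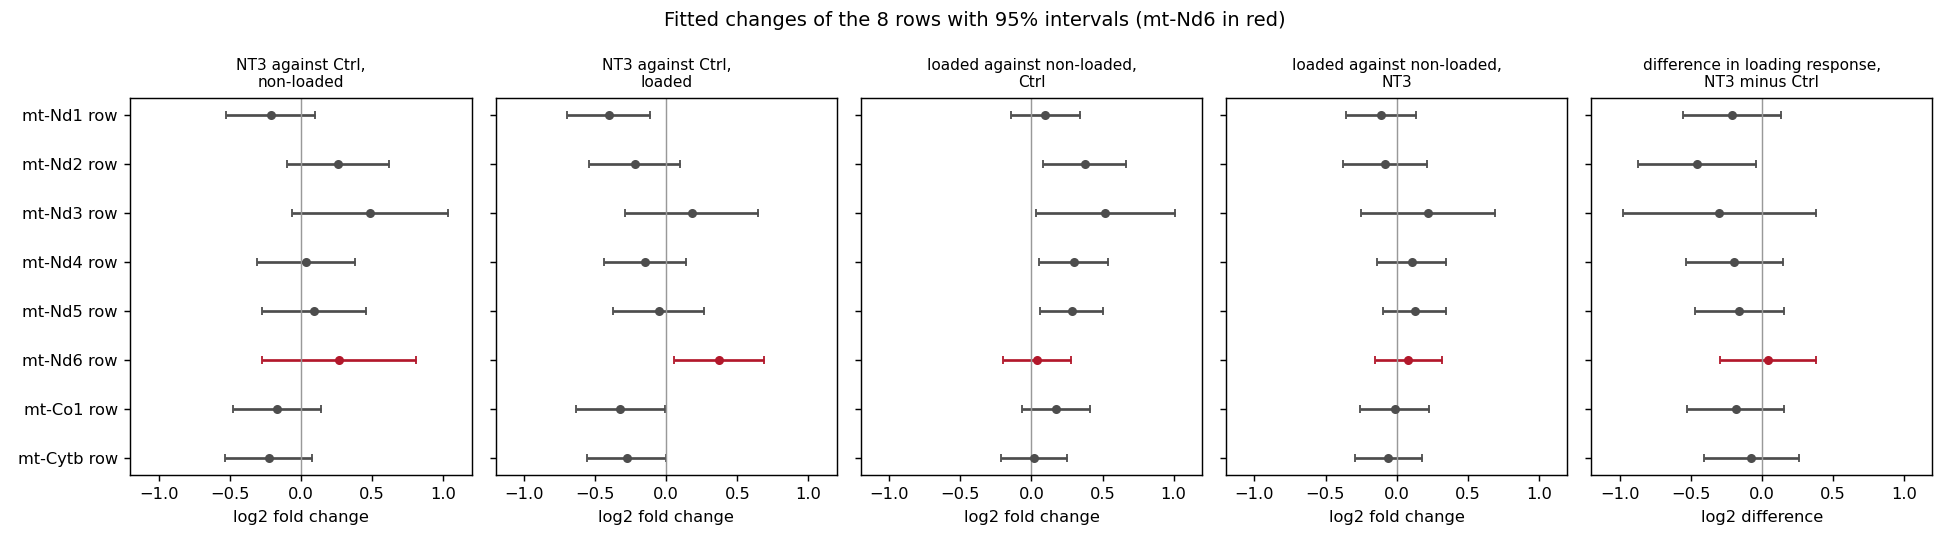
Fitted log2 fold changes (edgeR) of the 8 rows in the 5 comparisons, with 95% intervals; mt-Nd6 in red. Intervals that leave out 0 are those with an unadjusted p under 0.05, and none of them passed the adjustment over all rows.

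The 8 rows did not vary as 1 block across the libraries. Over 16 libraries, which share depth, TMM scaling and, in pairs, a mouse, Pearson's r of log2 CPM was 0.92 between mt-Nd4 and mt-Nd5, 0.83 between mt-Nd1 and mt-Cytb and 0.74 between mt-Co1 and mt-Cytb. The mt-Nd6 row went with mt-Nd5 (0.78), the row it touches, and with mt-Te (0.94), which follows it on the map, and less with mt-Cytb (-0.16) and mt-Co1 (-0.33). Taken as deviations from the group means, the value for mt-Nd5 and mt-Nd6 was 0.91. The coefficient of variation over the 16 libraries was highest for mt-Nd6, 27.0%, and lowest for mt-Cytb, 14.2%.

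Of 4092 non-mitochondrial rows averaging at least 20 fragments, the most like mt-Nd6 were Fam149b (r = 0.81), Atg16l2 (0.78), Prox2 (0.78), Plec (0.74) and Gm13833 (0.73). The first 3 lie opposite exons of Gm30054, Fchsd2 and Prox2os. The rows most like mt-Nd5 were Slc31a1 (0.82), Gm29358 (0.79), Cracr2b (0.79), Mrpl49 (0.76) and Dmp1 (0.73). The muscle-linked Rabep2 row had an r of 0.35 with mt-Nd6 and 0.27 with mt-Nd5.

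Among the other mitochondrial rows, 1 was called, in NT3 against Ctrl loaded tibiae. In that comparison 8 tRNA rows of each strand and 2 rRNA rows were tested, and 2.63% of all rows were called. The mt-Ty row (tRNA for tyrosine, on the mt-Nd6 strand) was lower in NT3 loaded than in Ctrl loaded tibiae, at 110, 126, 91.6 and 103 CPM in NT3 and 151, 140, 175 and 178 CPM in Ctrl. The groups did not overlap, and the log2 fold change was -0.58 (SE 0.16, adjusted p = 0.0417). The call was lost in 9 of 15 alternatives, with adjusted p from 0.0311 to 0.164, among them the fits without Ctrl replicate 1, 3 or 4 and without NT3 replicate 1, 3 or 4. In non-loaded tibiae the same row was 149, 158, 106 and 164 CPM in NT3 and 224, 169, 192 and 177 CPM in Ctrl. Its log2 fold change there was -0.41 (SE 0.17, adjusted p = 0.506).

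The nuclear genes that complete the respiratory chain gave little signal under their own names. Of 37 complex I genes, 36 had a row and 7 averaged at least 10 fragments. In the 2 comparisons between genotypes 7 of these rows were tested, and in the 3 on loading 11 were, with 0 called in each direction. None of the 4 complex II rows was tested, the succinate dehydrogenase row Sdha averaging 2.94 fragments. For complex III 1 row, for complex IV 2 to 4 and for complex V 6 to 7 were tested, with 0 called. Of the 77 mitochondrial ribosomal protein rows 13 or 19 were tested, and of the stress response rows 5, also with 0 called. The median log2 fold change of the tested complex I rows, none of them called, was 0.13 in NT3 against Ctrl non-loaded and -0.12 in NT3 against Ctrl loaded tibiae. It was -0.021 with loading in NT3 mice, 0.16 with loading in Ctrl mice and -0.28 for the difference in loading response. Of the 8 usually abundant nuclear rows 6 were tested. On loading 1 was called higher in NT3 mice, where 0.417% of all rows were called, and 3 in Ctrl mice, where 4.06% were. For the difference in loading response 1 was called lower (adjusted p = 0.0470), where 0.139% of all rows were called, and 0 were called between genotypes.

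Of the 31 transcription and RNA factors, 10 or 11 rows were tested and 1 was called, in both loading comparisons. Of all rows, 0.417% were called with loading in NT3 mice and 4.06% in Ctrl mice. The Mterf2 row, named for a mitochondrial transcription termination factor, was 194, 161, 103 and 69.1 CPM in loaded and 81.0, 90.6, 74.8 and 48.5 CPM in non-loaded limbs of NT3 mice (log2 fold change 0.80, SE 0.18, adjusted p = 0.0254). In Ctrl mice it was 133, 206, 133 and 203 CPM in loaded and 53.4, 66.6, 37.5 and 120 CPM in non-loaded limbs (log2 fold change 1.34, SE 0.18, adjusted p = 6.68e-07). All 8 mice had more of it in the loaded limb. The row lies opposite exons of Tmem263, so its fragments may be of either gene. Without the replicate block neither call remained (adjusted p = 0.804 in NT3 and 0.105 in Ctrl), and the NT3 call was lost without NT3 replicate 1 (adjusted p = 0.467), without NT3 replicate 2 (0.151) and with library size alone (0.136).

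Of the 11 biogenesis regulators 6 rows were tested and 1 was called, with loading in Ctrl mice, where 4.06% of all rows were. This was Gabpa, named for a transcription factor of nuclear respiratory genes and lying opposite Atp5j of complex V. In Ctrl mice it was 83.0, 85.0, 113 and 90.6 CPM in loaded and 71.6, 45.1, 73.0 and 49.2 CPM in non-loaded limbs (log2 fold change 0.65, SE 0.18, adjusted p = 0.0269). The call was lost in 7 of 16 alternatives, including without Ctrl replicate 2 (adjusted p = 0.198), 3 (0.118) or 4 (0.110).

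Read by the gene opposite, 12 rows lay opposite complex I genes, 2 opposite complex III, 4 opposite complex IV and 8 opposite complex V genes, and 25 opposite mitochondrial ribosomal protein genes. Apart from Gabpa, 2 were called. With loading in Ctrl mice, 1 of 19 tested rows opposite mitochondrial ribosomal protein genes was called, against 4.06% of all rows. In NT3 against Ctrl non-loaded tibiae, 1 of 3 tested rows opposite complex IV genes was called, against 0.579% of all rows. The Eme1 row, opposite Mrpl27 and Lrrc59, was higher with loading in Ctrl mice (log2 fold change 0.82, adjusted p = 2.94e-05). The Vps13b row, opposite Cox6c, was lower in NT3 non-loaded tibiae at 41.0, 42.6, 33.7 and 71.2 CPM, against 76.1, 98.2, 92.8 and 118 CPM in Ctrl non-loaded tibiae. The groups did not overlap, and the log2 fold change was -1.04 (SE 0.22, adjusted p = 0.0192). The call was lost in 7 of 15 alternatives, 6 of them with a single library left out (Ctrl replicate 2, 3 or 4, or NT3 replicate 1, 2 or 3), and the adjusted p ran up to 0.142.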

How the data were processed

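RNA from 16 tibiae of 8 mice was depleted of ribosomal RNA, randomly primed and sequenced single-end for 75 bases; the mean RNA integrity number was 5.4, per the labels. Per the submitters' processing notes, STAR 2.4.2a, featureCounts 1.4.6 of Subread and DESeq2 were used with mm10. The authors deposited gene counts, whole numbers of fragments per row; the annotation release, strand setting and treatment of reads with several matches are not given in the sources used here. The libraries held 758394 to 1064391 counts each, which sets the counting error of a row.

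Of 47517 rows, 45250 matched GENCODE M21 on GRCm38 by symbol. Rows were filtered with filterByExpr (minimum count 10), scaled by TMM and tested with edgeR's robust quasi-likelihood F test, with Benjamini-Hochberg adjustment over all rows tested. Comparisons between genotypes used 8 libraries of separate mice; the loading comparisons and their difference used 16, with mouse as a replicate block. The design text pairs the limbs of each mouse; deviations of paired limbs from their group means correlated at 0.044 to 0.171, and for Ctrl mouse 4 another mouse gave a higher value, 0.0864 against 0.0442. Levels are TMM-scaled counts per 1e+06 fragments (CPM), or CPM per kb of annotated length. Rows were called opposite a gene at 20 or more bases of exon overlap on the other strand. The fits ran in edgeR 4.0.16 (with limma 3.58.1) and DESeq2 1.42.0 under R 4.3.3. The edgeR fits were also run on simulated counts with known changes. These counts held no differences between mice, so they did not check the replicate block.

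The members, gene lists and tests were chosen with earlier results of these data known. Named beside the members are the other mitochondrial rows, nuclear copies, up to 4 called rows of each list or its highest row, a few usually abundant transcripts, and the 5 rows most correlated with mt-Nd6 and with mt-Nd5. The mitochondrial ribosome list was filled in by symbol after the files had been read. Alternatives were DESeq2 size factors or library size alone, no filter, DESeq2, ribosomal or mitochondrial rows left out of library sizes, the Rabep2 level as covariate, each mouse left out, and no replicate block.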

Additional observations from a re-analysis of the deposited data

Results flagged for a closer look

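Samples far from the rest of their group were looked for in 40 groups of 4 libraries, and 3 were found, where chance gives about 1 in 20. The mt-Nd2 row was lowest in Ctrl non-loaded replicate 4, at 134.7 CPM against 155 to 158 CPM in the other 3. The mt-Cytb row was highest in NT3 loaded replicate 2, at 633.3 CPM against 437 to 469 CPM. The 8 rows together took 0.639% of the fragments in Ctrl non-loaded replicate 4, against 0.390% to 0.422%.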

How the results depend on the processing

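Of 623 refitted values of the 8 rows, 600 kept their direction and side of the threshold, 20 turned in sign, all uncalled, and 3 became called when 1 mouse was left out. Turned values were 1.19e-06 for mt-Nd5 (NT3 against Ctrl, loaded) and 0.00398 for mt-Co1 (NT3 loading) with the Rabep2 covariate, and -0.00568 for mt-Cytb (Ctrl loading) with library size alone. Without the replicate block mt-Nd6 gave -0.022 in Ctrl and mt-Co1 0.00684 in NT3 loading. Leaving out single mice gave, for NT3 against Ctrl in non-loaded tibiae, -0.15 to 0.13 (mt-Nd4) and -0.080 to 0.21 (mt-Nd5), and in loaded tibiae -0.20 to 0.089 (mt-Nd5). It gave -0.080 to 0.23 (mt-Nd6) and -0.040 to 0.11 (mt-Cytb) for Ctrl loading, -0.11 to 0.076 (mt-Co1), -0.13 to 0.032 (mt-Cytb) and -0.12 to 0.00217 (mt-Nd2) for NT3 loading, and -0.15 to 0.16 (mt-Nd6) and -0.17 to 0.014 (mt-Cytb) for the difference.

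The count of members called was 0 to 1 over single mice left out in loaded NT3 against Ctrl and in Ctrl loading. Rows called numbered 36, 160, 292, 30 and 10 in the 5 comparisons. Without the filter 71 were called between genotypes in non-loaded tibiae and 17 for the difference. DESeq2 called 169 in Ctrl and 19 in NT3 loading; library size alone and the Rabep2 covariate each called 19 in NT3. Without the replicate block 171, 5 and 0 rows were called in the 3 loading comparisons. Leaving out single mice gave 12 to 77 rows in non-loaded NT3 against Ctrl, 163 to 324 in Ctrl and 17 to 44 in NT3 loading. Without ribosomal rows in the denominator the Ctrl loaded share was 0.594%. Without length scaling the mt-Nd6 ratio was 4.94, 4.69, 3.12 and 3.45 in NT3 loaded, NT3 non-loaded, Ctrl loaded and Ctrl non-loaded tibiae; over windows without a nuclear copy, an alternative chosen after seeing the data, it was 8.14, 7.67 and 5.16 in the first 3. The causes were not tested.

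Depth limits mt-Nd3 most, at 20 to 54 fragments per library. The counted strand is not stated in the sources used here, and it was not tested beyond the levels described.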
